A study of Mus musculus with 2 samples.

Results

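Lysosomal enzymes and membrane proteins were followed as a set of 34 genes listed by name. The rule used no measured value, but the list was drawn up with earlier results of these data known. The set held 15 acid hydrolases, 3 other luminal proteins, 6 membrane proteins, 9 subunits of the vacuolar proton pump (V-ATPase) and the transcription factor Tfeb. All 34 were found among the 20145 genes that could be named on the array through RefSeq accessions, with 42 probes between them. All 34 were also among the 13843 genes measured on both arrays, that is, well above background by the scanner software.

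The 2 samples were cultures of bone marrow cells from C57BL/6 mice, each read on 1 single-colour (Cy3) Agilent array. One culture, GM-CSF ONLY, grew over 4 days with GM-CSF at 40 ng/ml, a cytokine that drives myeloid growth, and its medium held 5% fetal bovine serum. The other, GM-CSF + IL-6, also received 40 ng/ml of IL-6, an inflammatory cytokine, so both carried GM-CSF and the serum. The labels name the product of both cultures as myeloid-derived suppressor cells, immature myeloid cells that restrain T cells, and they mention no sort, no age or sex and no number of mice. With 1 array per condition there was no replicate and no test, so every difference below is between these 2 cultures and has no p-value. In such a mixed culture, fewer cells of a type and less RNA per cell cannot be told apart.

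Lysosomes are acidic organelles in which hydrolases degrade macromolecules delivered by endocytosis, phagocytosis and autophagy. The V-ATPase pumps protons into the lumen, luminal activators and transfer proteins present lipids to the enzymes, and heavily glycosylated membrane proteins line the inner face. Many of these genes are known targets of TFEB and the related factors TFE3 and MITF, which bind E-box sequences with the core CACGTG. In macrophages and their precursors the lysosome is a large compartment that serves killing, digestion and antigen processing.

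The TFEB-type E-box is shown in the promoters of 4 members because it is the sequence feature that several lysosomal genes share. The windows come from RefSeq (GRCm38.p6) and run from 250 bases before to 50 bases after a transcription start. They were present for 28 members in 31 windows. Asah1, Npc1, Atp6v0d2, Atp6v1b2, Atp6v1c1 and Atp6v1h had no window in the table. The printed part is the 250 bases before the start, on the gene's own strand from 5′ to 3′, and the capitals mark CACGTG, or TCACGTGA where the core has that flank on both sides.
Mcoln1 (chr8:3500269-3500518, plus strand): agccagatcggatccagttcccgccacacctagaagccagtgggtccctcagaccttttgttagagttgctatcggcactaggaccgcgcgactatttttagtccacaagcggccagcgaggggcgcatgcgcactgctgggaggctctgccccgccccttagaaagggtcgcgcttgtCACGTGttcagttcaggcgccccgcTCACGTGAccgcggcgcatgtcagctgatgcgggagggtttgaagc
Lamp1 (chr8:13158911-13159160, plus strand): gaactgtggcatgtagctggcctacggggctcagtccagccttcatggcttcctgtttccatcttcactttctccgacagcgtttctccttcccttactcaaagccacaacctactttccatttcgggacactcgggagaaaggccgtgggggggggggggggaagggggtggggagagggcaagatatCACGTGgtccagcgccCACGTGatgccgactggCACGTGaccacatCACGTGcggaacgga
Atp6v1a (chr16:44139260-44139509, minus strand): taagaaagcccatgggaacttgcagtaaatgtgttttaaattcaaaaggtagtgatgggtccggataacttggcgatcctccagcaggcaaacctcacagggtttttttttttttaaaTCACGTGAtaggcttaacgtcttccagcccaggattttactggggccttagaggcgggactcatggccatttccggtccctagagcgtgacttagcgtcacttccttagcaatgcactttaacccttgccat
Gla (chrX:134601006-134601255, minus strand): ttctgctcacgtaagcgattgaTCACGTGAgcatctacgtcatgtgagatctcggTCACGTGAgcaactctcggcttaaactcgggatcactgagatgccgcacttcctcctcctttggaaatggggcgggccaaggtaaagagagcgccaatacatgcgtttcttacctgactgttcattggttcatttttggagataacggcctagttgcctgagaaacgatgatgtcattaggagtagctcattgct

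Lamp1 held 4 copies of the core within 61 bases of its start, and Mcoln1 and Gla held 2 each. The core CACGTG, which reads the same on both strands, stood in 8 of the 31 member windows (25.8%), against 7.15% of all 32851 promoter windows. The genes were Glb1, Naglu, Gaa, Gla, Lamp1, Mcoln1, Atp6v0d1 and Atp6v1a. The longer TCACGTGA, which contains the core, stood in 4 member windows (12.9%), those of Gla, Mcoln1, Atp6v0d1 and Atp6v1a, against 0.974% of all windows. The CLEAR consensus, which is TCACGTGA with G before it and C after it, stood in 0 member windows and in 0.326% of all windows. These are matches of letters in 1 window per start and no test was made of them.

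The mRNAs of the lysosome differed little between the cultures. Values are log2 of the processed signal after each array was scaled to its 75th percentile, and a log2 ratio is GM-CSF + IL-6 minus GM-CSF ONLY. The error given with a ratio is the technical SD, measured on probes with repeated spots, which covers spot error only and not culture, extraction or labelling. Of the 34 genes, 0 were at least 1.2-fold higher (6.36% of all measured genes were) and 0 were at least 1.2-fold lower (5.97% of all). Of the members, 33 (all except Arsb) were at or above the 75th percentile of the arrays. Among the 8049 genes that bright, only 1.89% were at least 1.2-fold higher and 2.42% lower, so a count of 0 in 34 is near the share of bright genes. A 2-fold difference was reached by 0 members and also by 0 of the 8049 bright genes, against 0.282% higher and 0.101% lower among all genes.

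The log2 ratios of the 34 genes ran from -0.22 to 0.13, with an SD over genes of 0.08 and a median of -0.033. The median of all measured genes was -0.022, and that of the 8049 bright genes was -0.029, with an SD over genes of 0.13. A total of 21 members lay below 0 and 13 above, against 56.2% and 43.8% of all genes and 60% and 40% of the bright genes. The split of the members was thus near that of the bright genes. With normexp background correction the split was 27 below and 7 above, against 50.6% of all genes and 61.5% of the bright genes below 0. The median of the members was then -0.063, that of all genes -0.002 and that of the bright genes -0.035, so the members lay further below all genes than with the reported scaling. At least 2 technical SDs below 0 were 6 members, Psap, Npc2, Gaa, Lamp2, Scarb2 and Atp6v0d2, against 17.3% of all genes and 24.4% of the bright genes. At least 2 technical SDs above 0 were 0 members, against 11.4% of all genes and 13.6% of the bright genes.

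**Figure D1:**
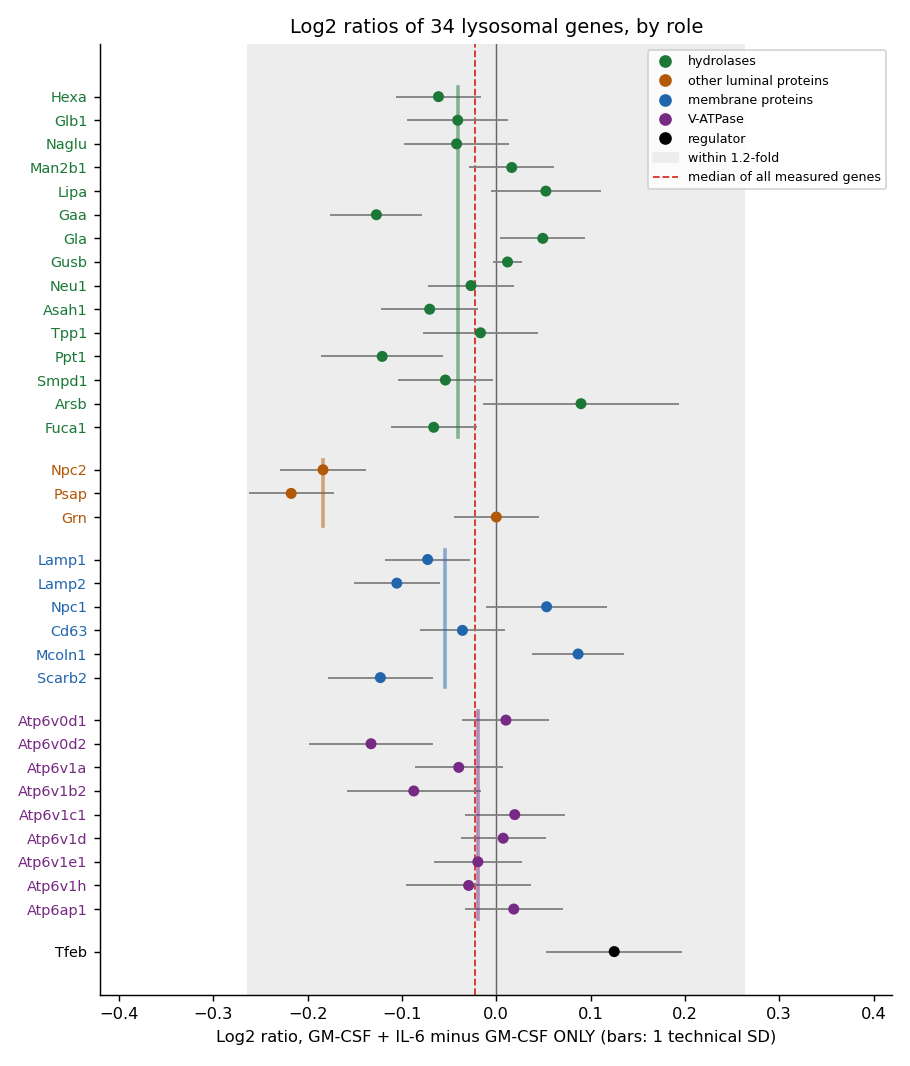
Log2 ratios (horizontal axis, GM-CSF + IL-6 minus GM-CSF ONLY) of the 34 genes, coloured by role, with bars of 1 technical SD, the median of each role as a vertical stroke, the median of all measured genes (-0.022) as a dashed line and the range within 1.2-fold shaded. All 34 points lie inside the shaded range, Psap and Npc2 furthest to the left and Tfeb furthest to the right.

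**Figure D2:**
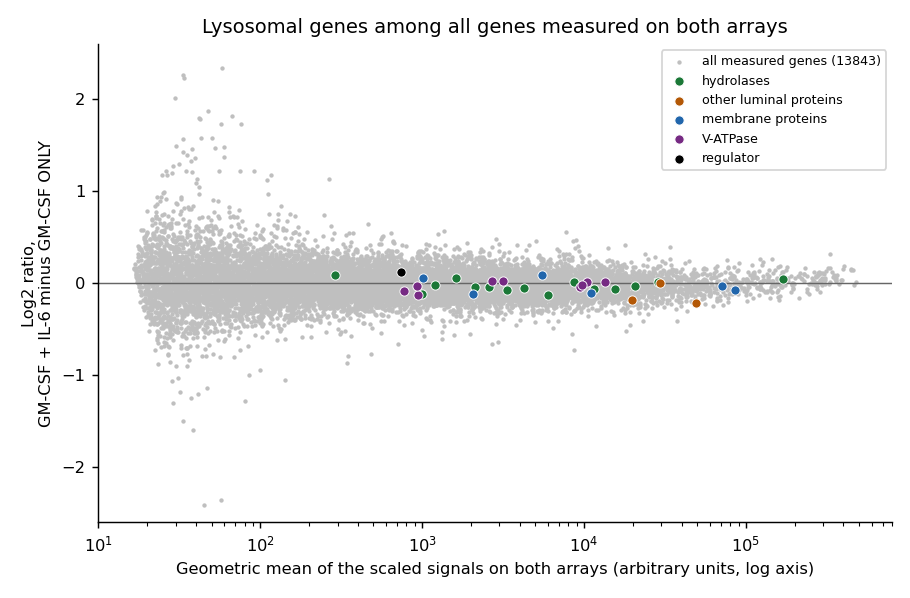
Log2 ratio of the 13843 genes measured on both arrays (grey) against the geometric mean of their scaled signals on a log axis, with the 34 lysosomal genes coloured by role. The lysosomal genes lie inside the grey band at every signal, from -0.22 to 0.13.

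The hydrolases stayed close to 0 as a group. Of the 15, 10 lay below 0 and 5 above, against 56.2% of all genes and 60% of the bright genes below 0. The median log2 ratio of the hydrolases was -0.041, and the values ran from -0.13 to 0.09. With normexp 13 were below and 2 above, with a median of -0.083. In that setting 50.6% of all genes and 61.5% of the bright genes lay below 0. At least 2 technical SDs from 0 was 1 enzyme, Gaa.

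Gaa, the acid glucosidase that breaks down glycogen, had a scaled signal of 5715 with IL-6 and 6241 without, a log2 ratio of -0.13 ± 0.05. Its other probe, with signals of 151.4 and 144.6, gave 0.07 ± 0.16, so the 2 probes lay on opposite sides of 0, 0.19 apart. Ppt1, the thioesterase that removes palmitate from proteins, had 959.8 with IL-6 and 1044 without, a log2 ratio of -0.12 ± 0.06.

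Enzymes of glycosphingolipid breakdown lay on both sides of 0, each by less than 2 technical SDs. Hexa, the alpha subunit of beta-hexosaminidase A, gave 15282 with IL-6 and 15945 without (-0.06 ± 0.05). Glb1, the beta-galactosidase of lysosomes, gave 2563 and 2636 (-0.04 ± 0.05). Gla, the alpha-galactosidase, gave 171650 and 165880 (0.05 ± 0.05), and its ratio changed sign with normexp (-0.02) and in the authors' matrix (-0.01).

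The sphingolipid and glycoprotein enzymes gave similar values. Smpd1, the acid sphingomyelinase, had a log2 ratio of -0.05 ± 0.05, and Asah1, the acid ceramidase, -0.07 ± 0.05 with -0.08 on its other probe. Neu1, a sialidase, gave 20426 with IL-6 and 20809 without, a log2 ratio of -0.03 ± 0.05. Man2b1, an alpha-mannosidase, gave 28794 and 28468 (0.02 ± 0.05).

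Of the remaining enzymes, none was 2 technical SDs from 0. Lipa, the acid lipase that frees cholesterol and fatty acids from lipoproteins, gave 1653 with IL-6 and 1594 without (0.05 ± 0.06). Tpp1, a peptidase, had a log2 ratio of -0.02 ± 0.06 and Naglu, an enzyme of heparan sulfate breakdown, -0.04 ± 0.06. Arsb, the sulfatase of dermatan and chondroitin sulfate, had the highest ratio of the hydrolases, 0.09 ± 0.10 (300.4 against 282.3), and -0.02 ± 0.16 on its other probe.

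Gusb, the beta-glucuronidase, was printed 10 times on each array and so shows the spot error directly. Over the 9 spots kept, the log2 ratio ran from -0.05 to 0.05 with a mean of 0.01 and an SD of 0.04. Of these spots 7 lay above 0 and 2 below. The signals ran from 8546 to 8930 with IL-6 and from 8394 to 9000 without, so the spots of both arrays overlapped.

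Fuca1, the alpha-L-fucosidase, was read by 2 probes that gave very different ratios. The probe used for the gene had signals of 11324 with IL-6 and 11857 without, a log2 ratio of -0.07 ± 0.05. The other probe had 31.19 and 210.4, a log2 ratio of -2.75 ± 0.21, or 6.74-fold lower with IL-6. This was the only one of the 42 member probes in an area of the array crowded with unequal spots, at row 26 and column 154. Such an area is a block of 16 rows and 12 columns with at least 4 measured probes without a gene name that differed at least 2-fold. An excess of unequal spots there is thus partly set by the definition. In the block, 28 of 133 detected probes (21.1%) were at least 2-fold lower with IL-6 and 2 were 2-fold higher. Within 5 rows and 5 columns of the Fuca1 probe, 29 of 86 (33.7%) were at least 2-fold lower and 0 were 2-fold higher, against 1.25% lower over the whole array. With the median over probes in place of 1 probe per gene, Fuca1 had a log2 ratio of -1.41 and was then the only member at least 1.2-fold lower.

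**Figure D3:**
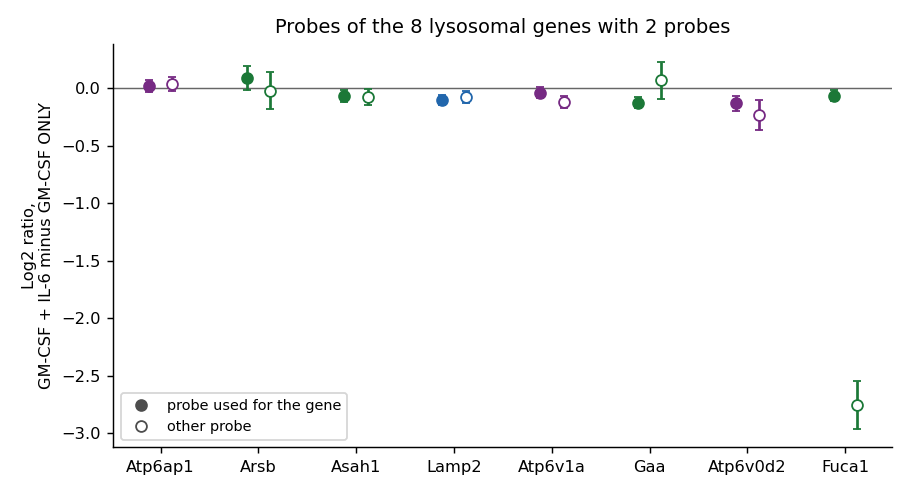
Log2 ratios (vertical axis) of both probes of the 8 lysosomal genes with 2 probes, filled for the probe used for the gene and open for the other, with bars of 1 technical SD. The probes of 7 genes lie within 0.19 of each other, while the second Fuca1 probe lies at -2.75.

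The 8 genes with 2 probes give a second reading of the same cultures. Except for Fuca1, the probes of each gene lay within 0.19 of each other on the log2 scale. Both probes had the same sign for 6 of the 8 genes, and the signs differed for Arsb and Gaa.

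Among the other luminal proteins, Psap and Npc2 had the lowest log2 ratios of the whole set. Psap, the precursor of the saposins that help hydrolases reach sphingolipids, gave 45527 with IL-6 and 52931 without, 1.16-fold lower (log2 ratio -0.22 ± 0.05). Npc2, which carries cholesterol out of the lumen, gave 18637 and 21168, 1.14-fold lower (-0.18 ± 0.05). Lower ratios than that of Psap were held by 9.09% of all measured genes, and lower than that of Npc2 by 12.8%. These shares include dim genes, whose ratios vary more. Of the 8023 bright genes outside the last row of the array, 402 were as low as Psap. Grn, the precursor of granulins, gave 29510 and 29509, a log2 ratio of 0.00 ± 0.05.

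Like that of every member except Gusb, the Psap value rests on 1 spot. For Psap this spot lies in the last row of the array. The 26 genes at or above the 75th percentile that were read in that row had a median log2 ratio of -0.011 and an SD over genes of 0.14, and Psap was the lowest of them. The Psap ratio ran from -0.22 to -0.21 over 9 other processing settings and that of Npc2 from -0.24 to -0.17 over 11. Both kept their direction in each. The filters, the flagged spots and the median over probes could not change these values, each read on 1 spot of 1 probe. The settings of spot position did not change that of Npc2 either. The number of settings therefore does not measure robustness.

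The membrane proteins had a median log2 ratio of -0.054, with 4 of 6 below 0 (56.2% of all genes and 60% of the bright genes were). Lamp1 and Lamp2, the main glycoproteins of the lysosomal membrane, gave 83076 with IL-6 and 87372 without for Lamp1 (-0.07 ± 0.05) and 10602 and 11405 for Lamp2 (-0.11 ± 0.05). The other Lamp2 probe, designed on another transcript of the gene, gave 4834 and 5103 (-0.08 ± 0.05), so both were slightly lower with IL-6. Scarb2, the receptor that brings glucocerebrosidase to the lysosome, gave 1964 and 2138 (-0.12 ± 0.06).

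The remaining membrane proteins lay on both sides of 0. Cd63, a tetraspanin of late endosomes, gave 70368 with IL-6 and 72139 without (-0.04 ± 0.05). Mcoln1, the calcium channel of the lysosomal membrane whose promoter is shown above, gave 5643 and 5314 (0.09 ± 0.05), and 0.20 with normexp. Npc1, the membrane partner of Npc2 in cholesterol export, gave 1029 and 991.7 (0.05 ± 0.06), so the partners lay on opposite sides of 0.

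The V-ATPase subunits stayed close to 0 as a group. The median of the 9 log2 ratios was -0.019 and they ran from -0.13 to 0.02. Of the 9, 5 were below 0 and 4 above, against 56.2% of all genes and 60% of the bright genes below 0. With normexp 8 subunits were below 0 and 1 above, with a median of -0.057. In that setting 50.6% of all genes and 61.5% of the bright genes lay below 0. Without Atp6v0d2 the other 8 ran from -0.09 to 0.02.

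The d subunit joins the membrane and cytosolic sectors of the pump and is made from a pair of genes. Atp6v0d1, the widely expressed form, gave 10468 with IL-6 and 10394 without, a log2 ratio of 0.01 ± 0.05. Atp6v0d2, a form known from osteoclasts and macrophages, gave 899.5 and 986.2 (-0.13 ± 0.07), and its other probe 194.9 and 229.2 (-0.23 ± 0.13). Both Atp6v0d2 probes were lower with IL-6, and the difference between the genes was not tested.

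The 6 genes of the cytosolic V1 sector, which splits ATP, had a median of -0.024. Atp6v1a, the catalytic subunit, gave 9334 with IL-6 and 9594 without (-0.04 ± 0.05), with -0.12 ± 0.05 on its other probe. Atp6v1b2, its nucleotide-binding partner, gave 750.9 and 797.8 (-0.09 ± 0.07). Atp6v1c1, Atp6v1d, Atp6v1e1 and Atp6v1h, of the stalks and the regulatory part of the sector, had log2 ratios of 0.02, 0.01, -0.02 and -0.03. Atp6ap1, an accessory protein of the pump, gave 0.02 ± 0.05 and 0.03 ± 0.06 on its 2 probes. The ratios of Atp6v0d1, Atp6v1d and Atp6ap1 changed sign with normexp.

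**Figure D4:**
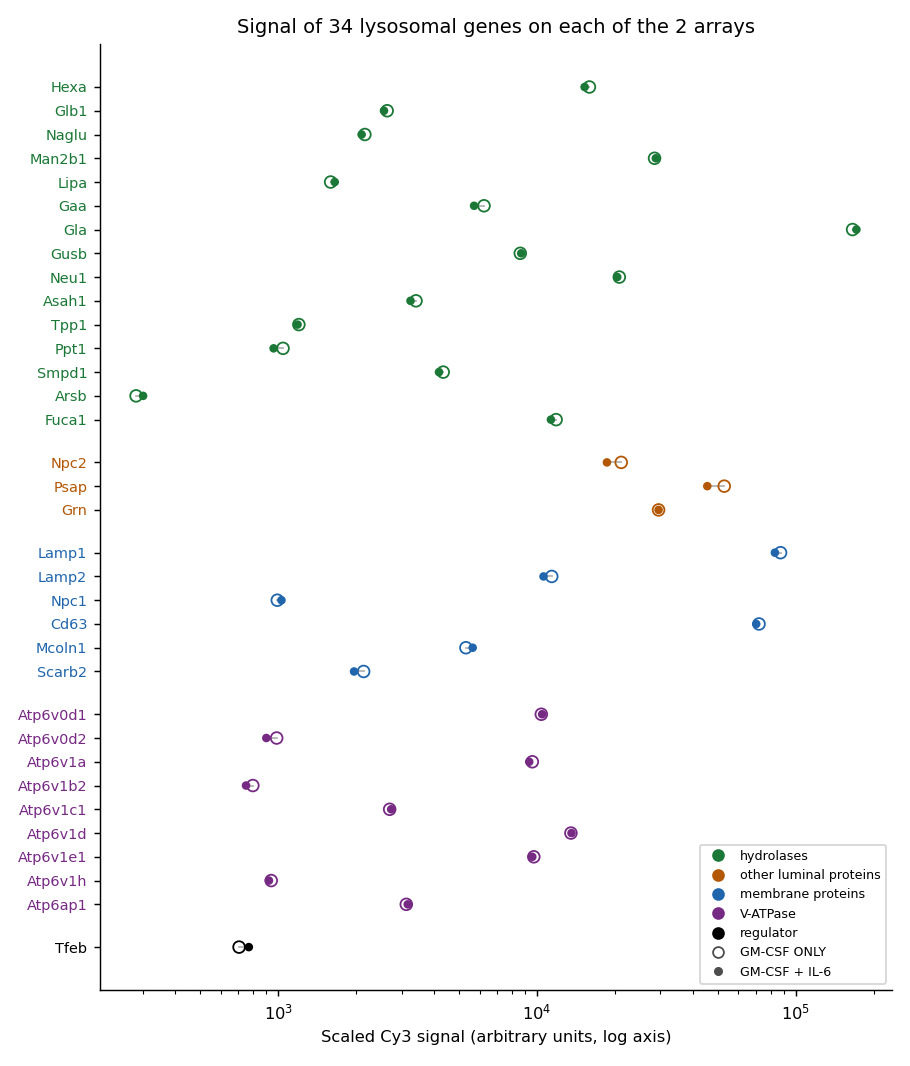
Scaled Cy3 signal (log axis) of the 34 lysosomal genes in the GM-CSF ONLY culture (open) and the GM-CSF + IL-6 culture (filled), 1 array each, grouped by role. The circles of a gene overlap or lie side by side throughout, with the widest gaps for Psap (45527 against 52931) and Npc2 (18637 against 21168).

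Tfeb had the highest log2 ratio of the 34 genes. It gave 769.7 with IL-6 and 705.8 without, a log2 ratio of 0.13 ± 0.07, which is under 2 technical SDs, and 82.2% of measured genes had a lower ratio. With normexp the ratio was 0.25. The promoter words shown above were found on both sides of 0. The 8 members with CACGTG had ratios from -0.13 to 0.09 with 5 below 0, and the 20 members whose windows lacked it ran from -0.22 to 0.13 with 12 below 0. The 4 members with TCACGTGA ran from -0.04 to 0.09 with 1 below 0, and 16 of the 24 without it were below 0. These are few genes and the splits were not tested.

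The relatives of Tfeb were read from a list of further lysosomal regulators. Mitf gave 1724 with IL-6 and 2217 without, a log2 ratio of -0.36 ± 0.06, and -0.34 ± 0.07 on its other probe. It was the only gene at least 1.2-fold lower among 75 related genes measured (5.97% of all genes and 2.42% of bright genes were). Lower ratios than that of Mitf were held by 2.64% of all genes. Tfe3 had a log2 ratio of -0.20 ± 0.05 on a probe in the last row of the array and -0.05 ± 0.06 on its other probe. Tfec gave 0.03 ± 0.06. Mitf was thus lower and Tfeb slightly higher in the same pair of cultures, on single arrays and with no test of the difference.

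The related genes, given in 6 lists, ran from -0.36 to 0.22 with an SD over genes of 0.11, a wider range than that of the members. Of the 75 measured of 78, 51 lay below 0 (56.2% of all genes and 60% of bright genes did) and 24 above. Their median log2 ratio was -0.057. The same shares apply to the counts below 0 in each of the 6 lists. At least 2 technical SDs below 0 were 23 of the 75 (17.3% of all genes and 24.4% of bright genes were), and 8 were at least 2 above (11.4% and 13.6%). In the 15 regulators of the MiT/TFE factors and mTORC1, the median was -0.064 with 9 below 0. The highest were Rraga, a GTPase that recruits mTORC1 to lysosomes, at 0.18 ± 0.05 and its relative Rragd at 0.12 ± 0.24.

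Further hydrolases and their cofactors had a median of -0.069, with 12 of 19 below 0. Galc, a galactosylceramidase, had -0.17 ± 0.18, Acp2, an acid phosphatase, 0.08 ± 0.08 and Idua, an iduronidase, 0.11 ± 0.05. The other probes of Acp2 and Idua gave -0.13 and -0.08.

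Further membrane proteins and transporters had a median of -0.098, with 9 of 11 below 0 and 5 of 11 at least 2 technical SDs below (17.3% of all genes and 24.4% of bright genes were). The lowest were Mfsd8 at -0.17 ± 0.24 and the amino acid sensor Slc38a9 at -0.15 ± 0.06, whose other probes gave 0.14 ± 0.22 and -0.30 ± 0.12. Slc17a5, the sialic acid exporter, had 0.22 ± 0.05 on its main probe and -0.13 ± 0.16 on the other, and Laptm5 had 0.01 ± 0.05 and -0.09 ± 0.05.

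Further V-ATPase subunits had a median of 0.027, with 4 of 9 below 0, and -0.011 with normexp. Atp6v0a1 and Atp6v0b, of the membrane sector, had log2 ratios of 0.12 ± 0.05 and 0.11 ± 0.05, and Atp6v0a2 and Atp6v1f had -0.17 ± 0.08 and -0.08 ± 0.05.

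Genes that sort proteins to lysosomes had a median of -0.029, with 7 of 10 below 0. Sort1, the sorting receptor sortilin that carries prosaposin, gave 4057 with IL-6 and 4841 without (-0.25 ± 0.05), and -0.02 ± 0.12 on its other probe. Vps35, a retromer subunit, gave -0.25 ± 0.08, and the adaptors Gga1 and Gga3 gave 0.06 ± 0.08 and 0.09 ± 0.05.

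Autophagy genes had a median of -0.056, with 10 of 11 below 0. Atg5, which acts in the lipidation of LC3, had -0.20 ± 0.05 and the cargo receptor Sqstm1 -0.16 ± 0.06. Gabarap, of the LC3 family, had 0.11 ± 0.05, with 0.06 on its other probe, and Wipi1 had -0.002 ± 0.06 and 0.03 ± 0.18 on its probes.

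**Figure D5:**
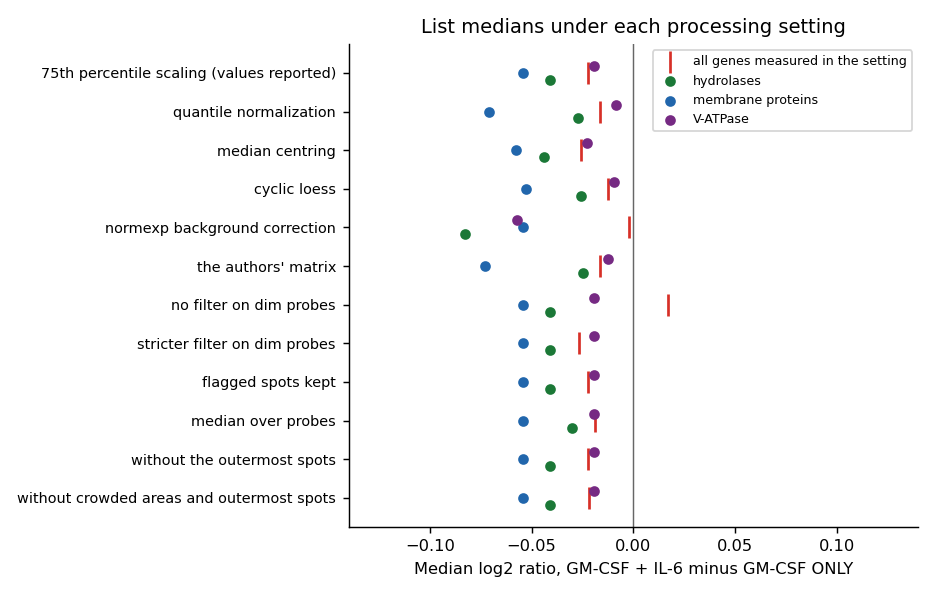
Median log2 ratio (horizontal axis) of the hydrolases, membrane proteins and V-ATPase subunits under the reported scaling and 11 other settings, with the median of all genes measured in that setting as a red stroke. The 3 medians stay below 0 in all 12 settings, between -0.083 and -0.0086. The settings for filters, flagged spots and spot positions repeat the reported medians of the 3 lists. The median of all genes is below 0 too, except without the filter on dim probes (0.017).

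The defining myeloid markers were measured in both cultures. Some cell type markers lay further from 0 than Psap, the lysosomal gene furthest from it. On the lower side alone, 9.09% of all measured genes did so too. Several of these markers lay below the 75th percentile of the arrays, where ratios vary more. All 6 myeloid markers (Itgam, Ptprc, S100a8, S100a9, Arg1 and Nos2) were well above background on both arrays, with log2 ratios from -0.31 ± 0.04 for Nos2, which was at least 1.2-fold lower, to 0.14 ± 0.05 for S100a9. Of 7 macrophage markers 5 were below 0, where 56.2% of all genes and 60% of bright genes were. The same shares apply to the counts below 0 in the other marker lists. The median of the macrophage markers was -0.09, and the summed signal was 84891 with IL-6 against 97799 without. Csf1r, the receptor for macrophage colony-stimulating factor, was at -0.25 ± 0.05 and weighed most in this sum (57302 against 68232). The mannose receptor gene Mrc1 was at 0.27 ± 0.08, at least 1.2-fold higher. Of 7 osteoclast markers 3 were below 0 and 4 above (median 0.02, summed signal 13344 against 15116). The acid phosphatase gene Acp5, at -0.31 ± 0.05, weighed most in that sum (6932 against 8613). Calcr was not above background on both arrays. All 6 mast cell markers were above 0, where 43.8% of all genes and 40% of bright genes were. Their median was 0.24 and the lowest was Fcer1a at 0.02 ± 0.07 (summed signal 18631 against 16519). Of the mast cell markers 3 were at least 1.2-fold higher, as were 6.36% of all genes and 1.89% of bright genes. They were Tpsb2 (0.42 ± 0.05) and 2 genes below the 75th percentile of the arrays, Mcpt4 (0.30 ± 0.21) and Ms4a2 (0.28 ± 0.12). Of 8 neutrophil markers 5 were below 0 (median -0.02, 752899 against 759789). Of 6 dendritic cell markers 4 were below 0 and 2 above (median -0.09, 300010 against 286143). Ccr7 (-0.27 ± 0.05) and Zbtb46 (-0.34 ± 0.23) were at least 1.2-fold lower, as were 5.97% of all genes and 2.42% of bright genes. Zbtb46 lay below the 75th percentile of the arrays. The 2 above 0 were Cd74 (0.19 ± 0.05) and H2-Ab1 (0.03 ± 0.05). Of the markers of cells of other kinds, 3 B cell, 3 T and NK cell, 1 erythroid and 4 stromal genes were measured, with medians of -0.01, -0.01, 0.69 and 0.26 and summed signals on both arrays from 101.8 to 9384. The erythroid and stromal genes all lay below the 75th percentile of the arrays. Hba-a1 was at 0.69 ± 0.17, Sparc at 1.48 ± 0.23 and Col1a2 at 0.53 ± 0.22. Col1a1 (-0.13 ± 0.21) and Pdgfrb (-0.02 ± 0.24) lay below 0. The part of these cell types in the lysosomal values was not tested.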

How the data were processed

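Total RNA was labelled with Cy3 and read on 1 Agilent array per condition. The deposited scanner files hold background-subtracted spot intensities, which per the file headers came from Feature Extraction 10.7.1.1, along with other columns of flags (above background, outlier), per the file headers. A deposited matrix of the authors' log2 values, whose columns were quantile normalized as far as its values show, served as an alternative. Here log2 intensity was taken minus each array's 75th percentile over non-control spots (486.2 with IL-6, 549.7 without). Printed signals were set to the geometric mean of both (517.0). Levels of different probes were not read as relative amounts of their mRNAs. They served to pick the probe of a gene and to call a gene bright. They were also added in the summed marker signals, where the brightest probes weigh most. Outlier spots were dropped. A probe was measured if at least 50% of its spots were well above background on each array (57.9% of probes with IL-6 and 59.1% without reached this), and the brightest measured probe stood for its gene. Technical SDs came from 266 probes with at least 5 spots. Genes were named through RefSeq accessions without version (table of GRCm38.p6). The arrays shared a slide and a scan, and no spot was saturated. Their number, 2, limits the precision. The text names all 34 members and, of each related list, the 2 lowest and 2 highest genes and the relatives of Tfeb. One gene that this rule would name is not reported here. Members and lists were chosen with earlier results of these data known. The alternatives were other normalizations, normexp (offset 50), filters, probe rules and spot positions. R 4.3.3, limma 3.58.1 and Python 3.11.15 were used, and the scripts were tested on simulated data.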

Additional observations from a re-analysis of the deposited data

How the results depend on the processing

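Across 11 alternatives, 1 of them (crowded areas and outermost spots left out) chosen after seeing the data, the median log2 ratio of the 34 genes ran from -0.063 to -0.022, of the hydrolases from -0.083 to -0.025, of the membrane proteins from -0.073 to -0.053 and of the V-ATPase from -0.057 to -0.0086. Of the member values 356 moved by less than their technical SD and 16 by more, 11 of these with normexp. The filters, the flagged spots and the spot positions changed no member value that they kept, except slightly that of Gusb. With the median over probes only the 8 members with 2 probes could move. The total of 356 therefore holds many values that could not move and does not measure robustness. The count at least 1.2-fold lower became 1 with the median over probes (Fuca1). Ratios near 0 changed sign for 7 members: Man2b1, Gusb, Gla, Atp6v0d1, Atp6v1d and Atp6ap1 with normexp, Gla also in the authors' matrix, and Grn with median centring. The cause was not tested. Psap had no value without the outermost spots. No paired analysis was possible because there was a single array for each of the 2 conditions.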
